A study of Mus musculus with 2 samples.

Results

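Carbonic anhydrase genes were followed in RNA of E3.75 mouse embryos, in 1 library of inner cell masses (ICMs) and 1 library of whole blastocysts. The genes were the 7 rows of the table whose symbol is Car2, Car3, Car4, Car9, Car12, Car13 or Car14, out of 19559 listed genes. They were chosen because the read count and RPKM of Car2 were far higher in the ICM library, so the contrast of these libraries chose them, and its values are given as a description. The other 9 genes of the family are set beside them, which makes 16 genes in all.

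Both libraries came from embryos of B6CBAF1 females mated with CD-1 males, with no treatment or mutation named. The E3.75 ICM library was made from ICMs dissected by immunosurgery, in which antibody and complement lyse the outer cells. The E3.75 blastocyst library was made from intact blastocysts, which contain their own ICM. The number of embryos pooled for each library is not stated in those labels. There was 1 library of each kind, so the spread between replicates is unknown, no p-value was computed, and each interval below is a 95% interval that covers counting error only.

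Carbonic anhydrases are zinc enzymes that interconvert carbon dioxide and bicarbonate, with the release or uptake of a proton. Cytosolic forms buffer the cell interior and supply bicarbonate, mitochondrial forms supply carboxylating enzymes, and forms with an outward-facing catalytic domain act at the cell surface. In epithelia they work beside bicarbonate and proton transporters that move ions and, with them, water. A few members of the family have lost the enzymatic activity.

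Reads on listed genes came to 4125479 for the ICM library, against 9271198 for the blastocyst library. RPKM, the read count scaled to gene length and to a library total, was the authors' value. Differences between libraries are log2((ICM RPKM + 1)/(blastocyst RPKM + 1)), for genes that reached an RPKM of 1 in either library, and a gene was counted as 2-fold higher or lower at 1 or more or at -1 or less. On the deposited scale most genes were lower in the ICM, with a median difference of -0.84 over the 8981 genes past this filter. This excess depends on the scaling. As deposited, 805 genes were counted as higher and 3950 as lower. With scaling to the listed reads these counts were 1910 and 2312, and with quantile normalization 1854 and 1892. A centred value is relative to the median of genes whose RPKM reached 5 in each library, -0.66. As a check of the tissue labels, 4 of 5 epiblast markers and 3 of 4 primitive endoderm markers were higher in the ICM by 2-fold or more. All 6 of 6 trophectoderm markers were at least 2-fold lower, where 44.0% of all tested genes were. Relative to the centre 5 epiblast and 3 primitive endoderm markers were higher and 5 trophectoderm markers were lower, all but Elf5 (-0.48).

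Of the 7 carbonic anhydrase genes, 1 was at least 2-fold higher in the ICM, Car2, where 8.96% of all tested genes were. Car4 and Car14 were at least 2-fold lower, a call that 44.0% of all tested genes shared. The other 4 did not pass the filter: Car9 and Car12 had a few ICM reads and no blastocyst read, and Car3 and Car13 had no read in either. Each of the 3 genes that passed did so only through the library where it was higher, so its passing favoured a difference. Relative to the centre, Car2 was again counted as higher, as were 16.9% of tested genes, and neither Car4 nor Car14 reached 2-fold, where 20.5% of tested genes were lower. This call is on the scale with the pseudocount, which compresses low values. The centred ratios without it are given below with each gene that passed the filter.

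**Figure D1:**
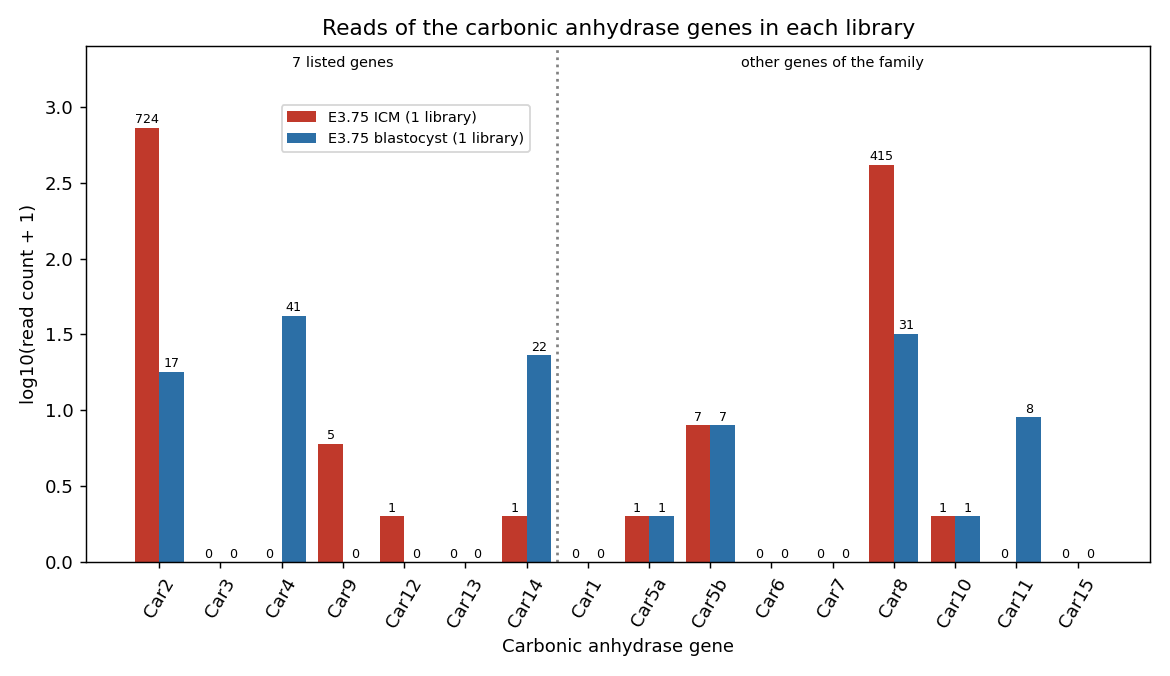
Read counts of the 16 carbonic anhydrase genes, as log10(read count + 1), with 1 bar for the E3.75 ICM library and 1 for the E3.75 blastocyst library and the count printed above each bar. Car2 (724 and 17 reads) and Car8 (415 and 31) had most reads in the ICM, whereas Car4 (0 and 41), Car14 (1 and 22) and Car11 (0 and 8) had most in the blastocyst.

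Car2, the cytosolic form known for its very high turnover, had 724 reads and an RPKM of 23.9 (22.2 to 25.7) in the ICM, against 17 reads and an RPKM of 0.473 (0.275 to 0.757) in the blastocyst. The ratio of RPKM was 50.6 (31.4 to 87.3), or 79.8 (49.5 to 138) relative to the centre. On the log2 scale with a pseudocount of 1 the difference was 4.08, or 4.74 centred, and 11 of the 8981 genes had a higher one. Car2 stood at rank 853 by RPKM among the 11608 genes with a read in the ICM, and at rank 9311 among the 12795 with a read in the blastocyst. It was therefore among the better expressed genes of the ICM library and among the low genes of the blastocyst library. Among 8817 genes past the filter that had a blastocyst read, 58 had a higher ratio than Car2.

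The blastocyst contains its ICM, so in an ideal mixture a gene confined to the ICM has a ratio of 1 over the fraction of blastocyst RNA that comes from the ICM. For Car2 the inverse of the ratio was 1.98%, or 1.25% relative to the centre. The same inverse lay between 8.32% (Esrrb) and 68.7% (Sox2) over the 5 epiblast markers and between 1.58% (Gata4) and 138% (Gata6) over the 4 primitive endoderm markers, so the genes did not share 1 value. The fraction itself was not measured. In bulk RNA of this kind, fewer cells of a type and less RNA per cell cannot be told apart. With 1 library of each kind, effects of the dissection or of library preparation cannot be told apart from these either.

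**Figure D2:**
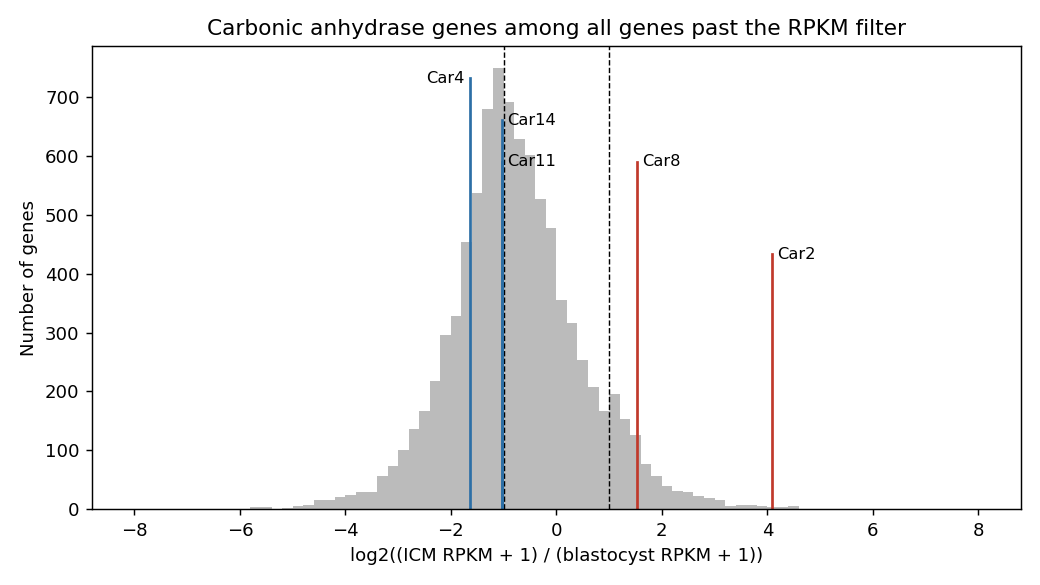
Histogram of log2((ICM RPKM + 1)/(blastocyst RPKM + 1)) over the 8981 genes past the filter (vertical axis, number of genes), with dashed lines at -1 and 1 and coloured lines, whose heights have no meaning, at the 5 carbonic anhydrase genes that passed. Car2 (4.08) lies in the far right tail and Car8 (1.53) at its foot, while Car4 (-1.64), Car14 (-1.04) and Car11 (-1.02) lie in the bulk of the distribution.

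Car3 and Car13, the other cytosolic members, had no read in either library. Car3 is a low-activity enzyme known from muscle, fat and liver, and Car13 is an active cytosolic form. A count of 0 allows up to 3 reads, which scaled as RPM, to the listed reads of a library, is 0.727 RPM in the ICM and 0.324 RPM in the blastocyst, whereas Car2 had 175 RPM in the ICM and 1.83 RPM in the blastocyst. Of all listed genes, 28.3% had no read in either library, and in the family this was so for 6 of 16 (37.5%), namely Car3, Car13, Car1, Car6, Car7 and Car15. Genes without any read were thus common over the table as a whole.

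The genes next to Car2 on chromosome 3 had no read. In the gene order of RefSeq assembly GRCm38.p6, Car13, Car1, Car3 and Car2 lie next to each other with no other protein-coding gene between them, and the first 3 had no read. Beyond them on the Car13 side lie Rbis, listed in the table as 1810022K09Rik, with an RPKM of 24.4 in the ICM and 42.4 in the blastocyst, and E2f5, a transcription factor of the E2F family, with 1.13 and 1.08. Their ratios were 0.575 (0.454 to 0.725) and 1.05 (0.619 to 1.76). Beyond Car2 lie Gm9733 and Sirpb1a (Sirpb1 in the table), both without a read. Of these 8 neighbouring genes, Car2 was the one that was at least 2-fold higher in the ICM.

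The 4 members that act at the cell surface were low in both libraries. Car4, which is tethered to the membrane by a lipid anchor, had no read in the ICM, against 41 reads and an RPKM of 2.12 (1.52 to 2.87) in the blastocyst. At an equal RPKM, 34.5 ICM reads would have been counted. Car4 was at least 8.95-fold lower by the exact limit, and at least 11.5-fold lower at a floor of 3 ICM reads, a bound that leaves out the counting error of the blastocyst library. Relative to the centre the ratio had an upper limit of 0.176. Its difference on the log2 scale was -1.64, or -0.98 centred, and 20.9% of the tested genes had a lower one.

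Car14, a transmembrane form with an outward catalytic domain, had 1 read and an RPKM of 0.0640 in the ICM, against 22 reads and an RPKM of 1.19 in the blastocyst. Its ratio was 0.0540 (0.00131 to 0.334), or 0.0851 (0.00206 to 0.527) relative to the centre. The difference was -1.04, or -0.38 centred, just past the 2-fold line as deposited, with 42.4% of tested genes lower. The pseudocount compresses differences at such levels, which is why a ratio this far from 1 gives a modest log2 value.

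Car9 and Car12, the transmembrane forms known as targets of the hypoxia-inducible factors (HIFs) and from tumours, were close to the detection limit. Car9 had 5 reads in the ICM (RPKM 0.194) and none in the blastocyst, and the lower limit of its ratio was 1.09. Car12 had 1 read in the ICM (RPKM 0.0103) and none in the blastocyst, with a lower limit of 0.0304. No direction can be read for Car12 at this depth, and the one for Car9 rests on 5 reads.

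Because Car4 and Car14 were counted on the same side, the 250 bases before their start sites are shown, as given in the RefSeq promoter table of GRCm38.p6, which matched 4 of the 7 members (Car4, Car9, Car12 and Car14). Capitals mark matches, on either strand, to any of 5 motifs. The TATA box was searched as TATAAA, and the GC box that binds SP factors as GGGCGG. For factors known as regulators of the trophectoderm, the TEAD motif was searched as GGAATG. The AP-2 motif was searched as GCCNNNGGC. The GATA motif was searched as AGATAA. Car4 lies on the plus strand of chromosome 11 and Car14 on the minus strand of chromosome 3, and both are written in the direction of the gene.
Car4: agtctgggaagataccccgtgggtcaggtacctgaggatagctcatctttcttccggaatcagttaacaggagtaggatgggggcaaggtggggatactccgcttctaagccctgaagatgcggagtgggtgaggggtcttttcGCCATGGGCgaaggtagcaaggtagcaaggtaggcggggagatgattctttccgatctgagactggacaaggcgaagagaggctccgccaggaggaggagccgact
Car14: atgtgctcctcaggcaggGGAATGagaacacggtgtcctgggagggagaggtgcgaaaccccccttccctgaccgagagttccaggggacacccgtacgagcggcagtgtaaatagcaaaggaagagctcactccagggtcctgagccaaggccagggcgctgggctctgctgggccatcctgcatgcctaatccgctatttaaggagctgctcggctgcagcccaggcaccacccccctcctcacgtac

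The Car4 window held 1 match to the AP-2 motif, which 13.7% of all 32851 promoter windows of this length held. The Car14 window held 1 match to the TEAD motif, which 12.6% of all windows held. Neither window matched the TATA, GC or GATA motif as spelled here, which 12.4%, 32.7% and 9.99% of windows held, and no motif overlapped another. A match describes letters in the window and is not a binding site.

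Among the 9 other genes of the family, 2 passed the filter. Car8 was the second gene of the family with many ICM reads. It encodes a form without enzymatic activity, known to bind an inositol trisphosphate receptor in the cerebellum. Car8 had 415 reads and an RPKM of 2.32 (2.10 to 2.55) in the ICM, against 31 reads and an RPKM of 0.146 (0.0991 to 0.207) in the blastocyst, a ratio of 15.9 (11.02 to 23.7). Relative to the centre the ratio was 25.1 (17.4 to 37.4). The difference of Car8 was 1.53, or 2.19 centred, and 358 tested genes had a higher one. The ratio of Car2 was 3.18 times that of Car8 in these 2 libraries, given as a description, since Car2 was chosen for its ratio.

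Car11, another form without activity, had no read in the ICM, against 8 reads and an RPKM of 1.03 in the blastocyst. It was at least 1.44-fold lower by the exact limit, and its difference of -1.02 became -0.37 when centred. Relative to the centre the ratio had an upper limit of 1.10, so that interval includes no difference. The mitochondrial forms Car5a (1 and 1 read) and Car5b (7 and 7 reads) and the inactive Car10 (1 and 1 read) gave the same count in both libraries. Their ratio was 1.19, with an interval of 0.355 to 3.97 for Car5b and a wider one for the others, so no difference was detectable at this depth.

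Grouped by where the enzymes act, the cytosolic forms summed to an RPKM of 23.9 in the ICM and 0.473 in the blastocyst, in both cases from Car2 alone. The membrane-bound or secreted forms summed to 0.268 in the ICM and 3.30 in the blastocyst, from 7 and 63 reads. The mitochondrial forms summed to 0.145 and 0.122, and the forms without activity to 2.34 in the ICM and 1.20 in the blastocyst. With Car2 and Car8 left out, the remaining 14 genes had 16 reads in the ICM and 80 in the blastocyst. Scaled to the totals behind RPKM, the ratio of these summed reads was 0.237 (0.130 to 0.410), and that of their summed RPKM was 0.0965. Car2 and Car8 had the most ICM reads of the family, so leaving them out favoured a low ratio. These values are a description on the deposited scale, without centring. For all 16 genes the ratio was 10.7 (8.92 to 13.0) by summed reads and 5.23 by summed RPKM. With Car2 alone left out the scales differed in direction, at 4.61 (3.73 to 5.73) by summed reads, in which Car8 weighs most, and 0.595 by summed RPKM.

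As a share of the family's summed RPKM, Car2 made up 89.7% in the ICM and 9.28% in the blastocyst. Car8 made up 8.70% in the ICM and 2.86% in the blastocyst. Car4 had no share in the ICM and 41.6% in the blastocyst, Car14 0.240% in the ICM and 23.3% in the blastocyst, and Car11 none in the ICM and 20.3% in the blastocyst. Of the family's reads, not scaled to length, Car2 took 62.7% (59.8 to 65.5, exact binomial interval) in the ICM and 13.3% (7.93 to 20.4) in the blastocyst.

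These shares depend on the length that the authors used for each gene, which the table does not state. The RPKM per read put the length of Car8 at 5.91 times that of Car2, whereas the summed exon length in the GENCODE M21 annotation, which is of a later build, was 3853 bases for Car8 and 1788 for Car2, a ratio of 2.15. By reads per kilobase of exon, Car2 was 3.76 times as high as Car8 in the ICM, against 10.3 times by RPKM. The share of Car2 in the ICM was 78.0% on the exon scale and that of Car8 20.8%. Car2 led and Car8 followed in the ICM on all 3 scales. In the blastocyst Car4 led on all 3 scales, and the order of the genes after it changed.

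**Figure D3:**
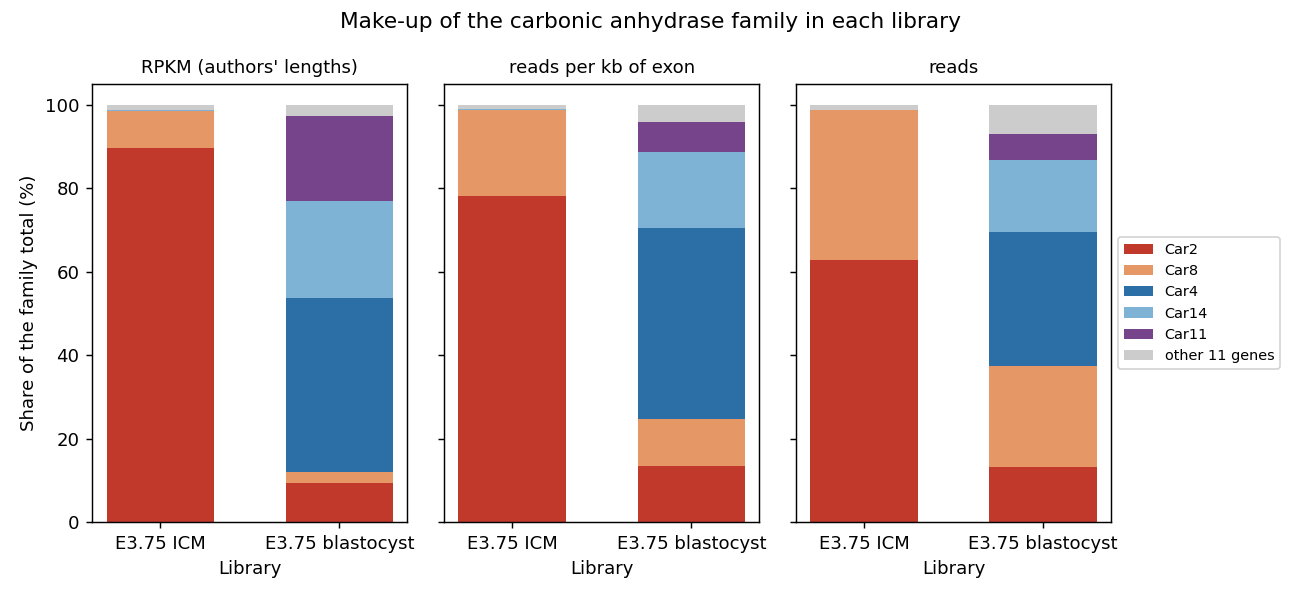
Share of the carbonic anhydrase total (vertical axis, %) held by each gene in the E3.75 ICM and E3.75 blastocyst libraries, on the scales of RPKM, reads per kilobase of exon and reads. Car2 fills 89.7%, 78.0% and 62.7% of the ICM bar, with Car8 most of the remainder, while Car4 is the largest part of each blastocyst bar.

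By joint level in the 2 libraries, the 5 genes nearest to Car2 among 9177 ranked genes were Vim, Ddc, Muc19, Ckap4 and Col4a1. The measure was the distance between log2(RPKM + 1) values over these 2 libraries, and it was 0.14 for Vim and 0.48 for Col4a1. Vim, the intermediate filament vimentin, had an RPKM of 21.6 in the ICM and 0.441 in the blastocyst. Ddc, aromatic L-amino acid decarboxylase, had 21.8 and 0.751, and the mucin gene Muc19 had 19.4 and 0.443. Ckap4, which encodes a protein of endoplasmic reticulum membranes, had 28.5 and 0.324, and Col4a1, a chain of basement membrane collagen, had 22.9 and 1.05. With 2 libraries such a likeness says only that the levels are close in both.

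Markers of other cells, some of them known for carbonic anhydrases, were counted. Red blood cells are rich in Car1 and Car2. Of the 7 red cell markers that the table lists, 5 had no read in either library, beside 28.3% of all listed genes. The beta-globin genes Hbb-b1, Hbb-b2 and Hbb-bh1 were among these 5. Car1 had none either. The erythroid transcription factor gene Klf1 had 59 ICM reads and no blastocyst read, and Slc4a1 had none in the ICM and 4 in the blastocyst. The summed RPKM of this list was 2.93 in the ICM and 0.0574 in the blastocyst. Of the 8 markers of muscle, fat and liver, 5 had no read in either library, beside the same 28.3% of all listed genes. Their list summed to an RPKM of 0.0451 in the ICM and 0.942 in the blastocyst. Markers of oviduct and uterine epithelium summed to 1.10 in the ICM and 21.2 in the blastocyst, and those of cumulus cells to 0.523 and 23.5. These last 2 lists lay on the same side as Car4 and Car14, mainly through Wfdc2 (7 and 158 reads) and Cyp11a1 (0 and 324 reads), and their part in those values was not tested. Of the other cumulus markers, Has2 (0 and 1 reads), Ptx3 (1 and 0) and Amh (0 and 0) had hardly any read. Star had 61 and 239. The other oviduct and uterine markers were Ltf (0 and 0), Muc1 (0 and 2), Pax8 (0 and 14) and Ovgp1 (1 and 16). Each of these 2 sums thus rests mainly on 1 gene, and it does not show which cells the reads came from.

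Carbonic anhydrases hand bicarbonate and protons to transporters, and 6 lists of such partners and of the HIF pathway, 67 genes in the table, were described in the same way. Of the 36 genes past the filter, 4 were higher in the ICM by 2-fold or more, 21 were lower and 11 were within 2-fold, with a median difference of -1.34, beside -0.84 over all tested genes, of which 8.96% were higher and 44.0% lower. Relative to the centre 8 were higher and 16 lower, beside 16.9% and 20.5% of all tested genes. On the deposited scale lower values in the ICM were thus the common case over the table. The counts of single lists below are to be read against these shares.

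Of 18 genes of the SLC4 and SLC26 families in the table, 6 passed the filter. These families hold bicarbonate transporters, but not every gene in them carries bicarbonate. Of the 6 genes, 1 was higher and 4 were lower in the ICM, with a median of -1.48 (1 and 3 relative to the centre). The higher one was Slc4a9, an anion exchanger family member, with 67 reads and an RPKM of 7.78 in the ICM, against 1 read and 0.0979 in the blastocyst, a ratio of 79.5 (13.8 to 3188). The chloride/bicarbonate exchanger gene Slc4a2 had an RPKM of 4.22 in the ICM and 19.1 in the blastocyst (ratio 0.220, 0.156 to 0.305). Slc4a11 had 1 read in the ICM and 127 in the blastocyst, and the sulfate transporter gene Slc26a2 had an RPKM of 1.53 and 10.01. Of the 6 genes past the filter, Slc4a9 thus lay on the side of Car2.

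Among sodium/proton exchangers 1 gene was counted as lower. This was Slc9a8, a form of the Golgi, with an RPKM of 0.390 in the ICM and 1.82 in the blastocyst, a difference of -1.02 (-0.36 centred). Of the lactate/proton carrier genes 3 of 6 passed. The monocarboxylate transporter gene Slc16a1 was lower, with an RPKM of 3.82 in the ICM and 22.5 in the blastocyst, and Bsg, its chaperone basigin, had 39.5 and 74.3. Emb, the related chaperone embigin, was higher in the ICM, with 4.08 against 0.503 (ratio 8.12, 5.55 to 12.2). The 4 genes of gas channels (Aqp1, Rhag, Rhbg and Rhcg) had 1 read in all, of Rhbg in the blastocyst.

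Of 9 genes for enzymes that take up bicarbonate or for subunits of these enzymes, 7 passed the filter. Of these, 3 were at least 2-fold lower in the ICM and no gene was as far on the other side, with a median of -0.44. Relative to the centre 3 were higher and 2 lower. Those counted as lower were Mccc2 (RPKM 0.435 in the ICM and 12.6 in the blastocyst), its partner subunit Mccc1 (6.34 and 17.2) and Pccb (4.19 and 18.3), a subunit of propionyl-CoA carboxylase. Pcca, the other subunit, had 26 reads in the ICM and 10 in the blastocyst, an RPKM of 2.02 and 0.653.

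Car9 and Car12 are known HIF targets, and 18 of the 21 genes of the HIF list passed the filter. In the ICM 2 of these were higher by 2-fold or more and 12 were lower, with a median of -1.84, where 8.96% and 44.0% of all tested genes were. Relative to the centre 3 were higher and 10 lower, where 16.9% and 20.5% of all tested genes were. The 4 largest differences in size were those of Ndrg1 (-4.92), Bnip3 (-3.31), P4ha1 (3.17) and Ddit4 (-3.13). The HIF target genes Ndrg1, Bnip3 and Ddit4 were lower, with an RPKM of 7.85 in the ICM and 267 in the blastocyst for Ndrg1, 0.516 and 14.01 for Bnip3, and 10.6 and 100.4 for Ddit4. P4ha1, a subunit of the collagen prolyl hydroxylase, was higher, with a ratio of 34.9 (24.6 to 51.3). The 5 ICM reads of Car9 are too few to place it with either group.

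**Figure D4:**
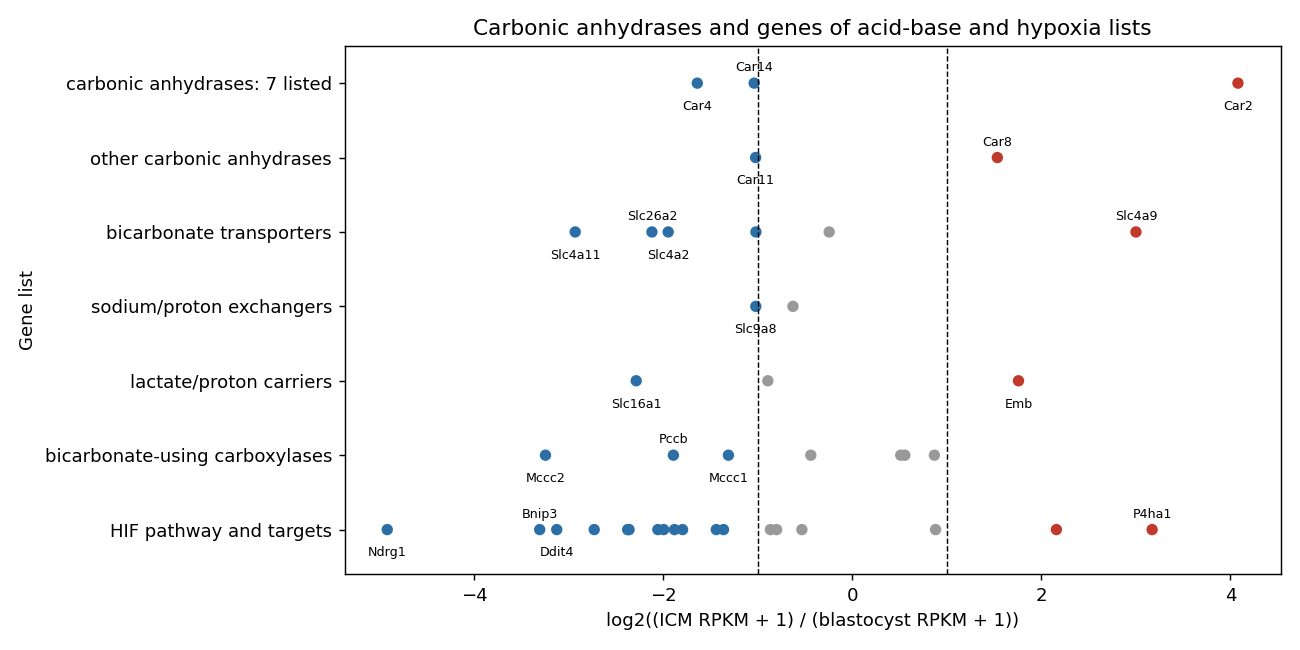
Differences, as log2((ICM RPKM + 1)/(blastocyst RPKM + 1)), of the genes past the filter in the carbonic anhydrase family and in 5 partner lists (rows), 1 point per gene, red at 1 or more and blue at -1 or less. Car2 (4.08) has the highest value shown, with P4ha1 (3.17) and Slc4a9 next, and Ndrg1 (-4.92) the lowest.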

How the data were processed

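The labels' protocols name a PicoPure kit for RNA extraction, NuGEN Ovation for amplification and SOLiD fragment libraries. Per the file headers, the authors deposited a read count and an RPKM value for each gene in both libraries. The submitters' processing notes name mm9 as the build. Which aligner, annotation, gene lengths, strand setting and rule for reads with several matches were used is not stated there, so counts of genes with near-identical copies are uncertain. RPKM over read count kept 1 ratio between libraries, which gives library totals in a ratio of 0.842 (ICM over blastocyst), whereas the listed reads had a ratio of 0.445.

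Ratios of RPKM have exact conditional (Clopper-Pearson) 95% intervals from the read counts, and single RPKM values exact Poisson intervals. Amplified cDNA has no molecular identifiers, so these cover counting error only. The members, lists and tests were chosen with earlier results of these data known. Partner genes named are the up to 4 of each list with the largest absolute difference, with 1 such gene not reported here. The genes most alike Car2 are the nearest 5 with 20 or more reads in a library, with unnamed gene models and small RNAs passed over. Marker genes, neighbours and counts of 0 are named from fixed lists. Alternatives were another pseudocount, filter, scaling and gene length. Computations used Python 3.11.15, numpy 2.4.6, pandas 2.3.3 and scipy 1.17.1 and were tested on simulated Poisson counts.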

Additional observations from a re-analysis of the deposited data

How the results depend on the processing

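Car2, which was chosen for its difference, was at least 2-fold higher in the ICM under all 8 alternatives of pseudocount, filter and scaling. Its difference lay between 2.40 and 6.16 on the log2 scale over the 6 that change it. Removing the filter or raising it to 5 could not change the call of Car2, since its ICM RPKM was 23.9. Under TPM 2 of the 7 genes were counted as higher, the added one being Car9. Its 5 ICM reads then pass the filter, and its difference rises from 0.255 to 1.64. The filter and the pseudocount stay at 1 while the TPM values are larger than RPKM, so this gain comes from the scale. The 2 genes counted as lower (Car4 and Car14) became 1 with quantile normalization and with scaling to the listed reads, and 0 when centred, with a pseudocount of 5 or with an RPKM minimum of 5. Among the other family genes the 1 higher (Car8) became 0 with a pseudocount of 5 or a minimum of 5, and the 1 lower (Car11) became 0 under those, when centred and with quantile normalization. In the partner lists the 4 higher genes became 8 when centred, with quantile normalization and with scaling to the listed reads, and 10 under TPM. The 21 lower ones stayed between 16 and 21. Over all genes the 805 higher became 1516 when centred, 1854 with quantile normalization, 1910 with scaling to the listed reads and 2869 under TPM. The 3950 lower became 1838, 1892, 2312 and 3642 in the same order. The share of Car2 in the ICM, 89.7% by RPKM, was 88.3% with quantile normalization, 62.7% by reads and 78.0% by exon length, which was chosen after seeing the data. No difference of Car2, Car4, Car8, Car11 or Car14 changed sign. With no ICM read, Car4 and Car11 could not do so under another pseudocount, TPM or scaling to the listed reads. No paired analysis was possible because each group has 1 library, and for the same reason no library could be left out. Depth limits Car9, Car12, Car11 and the mitochondrial forms, each with 8 reads or fewer in either library.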
